A study of Mus musculus with 10 samples.

Results

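Inhibitory transmission in the spinal cord was followed after injury through 10 genes: the glycine receptor subunits Glra1, Glra2, Glra3 and Glrb, the postsynaptic scaffold Gphn, the glycine transporters Slc6a5 and Slc6a9, the GABA-synthesising enzymes Gad1 and Gad2, and the vesicular transporter Slc32a1. They were taken from the platform annotation by symbol, not by their values, and each was represented by 1 transcript cluster, a set of probes over 1 gene locus. The 10 genes are 10 of 11280 genes that passed a filter on low signals, and all 10 passed it. In the exon-level data they had 167 of 229581 probe sets, each a few probes within 1 exon.

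Total RNA came from the spinal cord at thoracic segment T10 of wild-type ICR mice, an outbred stock. The groups were a sham operation and spinal cord injury at 1 day, 3 days, 1 week and 3 weeks, and the labels give an age of 4 weeks for every group. They give neither the kind of injury nor the time between sham surgery and collection. RNA of 3 mice was pooled per group, 15 mice in all, and each group has 1 gene-level and 1 exon-level sample. With 1 array per group there is no spread between animals and no test, so a gene is called lower or higher past a 2-fold difference from sham (a log2 difference of 1).

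Glycine and GABA are the fast inhibitory transmitters of the spinal cord, where many interneurons release both. Glutamate decarboxylases make GABA, plasma membrane transporters recover glycine, and a shared vesicular transporter loads both into synaptic vesicles. On the receiving cell, glycine opens chloride channels built from alpha and beta subunits, which gephyrin holds beneath the release site. Loss of this inhibition is known from startle disease and from spasticity and pain states.

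All 10 genes were below sham by some amount at each of the 4 times. At the exon level probe sets were counted, not genes. Of all 161030 probe sets passing the exon-level filter, 65.9% (1 day), 63.0% (3 days), 56.8% (1 week) and 50.6% (3 weeks) were below sham. Of the 154 such probe sets of the 10 genes, 94.8%, 99.4%, 98.7% and 99.4% were below sham in that order. All 10 genes were at least 2-fold lower at 1 week. At that time the falls ran from -1.43 (Gphn) to -3.20 (Glra1) on the log2 scale, 2.70-fold to 9.19-fold. With signals below the filter level raised to it, Glra3 had the smallest fall, at -1.07. Counted at 2-fold, 1 gene was lower at 1 day (Glra2), 9 at 3 days (all except Glra3), 10 at 1 week and 4 at 3 weeks (Glra1, Glra2, Slc6a5 and Slc32a1). Of all 11280 genes, 4.09%, 9.57%, 13.9% and 3.4% were at least 2-fold lower at these times in order. The median difference of the 10 genes was -0.78, -1.36, -2.09 and -0.99 in that order. The median of all genes was -0.15, -0.12, -0.06 and 0.00. By the median of their probe sets, 2 of the 10 were at least 2-fold lower at 1 day (Glra2 and Gad1), 9 at 3 days, 10 at 1 week and 4 at 3 weeks. At the exon level 5.54%, 11.8%, 15.6% and 3.65% of 14378 genes were. The exon-level call of Glra2 at 1 day is tied to the filter on probe sets, its median being -0.77 without that filter. At 3 weeks Slc6a9 and Gad1 lay within 0.05 of the 2-fold line without reaching it. The arrays did not share 1 scale, their medians spanning 0.24, and after array scaling the count at 1 day was 0 and that at 3 weeks 5 or 6. In tissue RNA, fewer neurons and less RNA per neuron cannot be told apart.

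**Figure D1:**
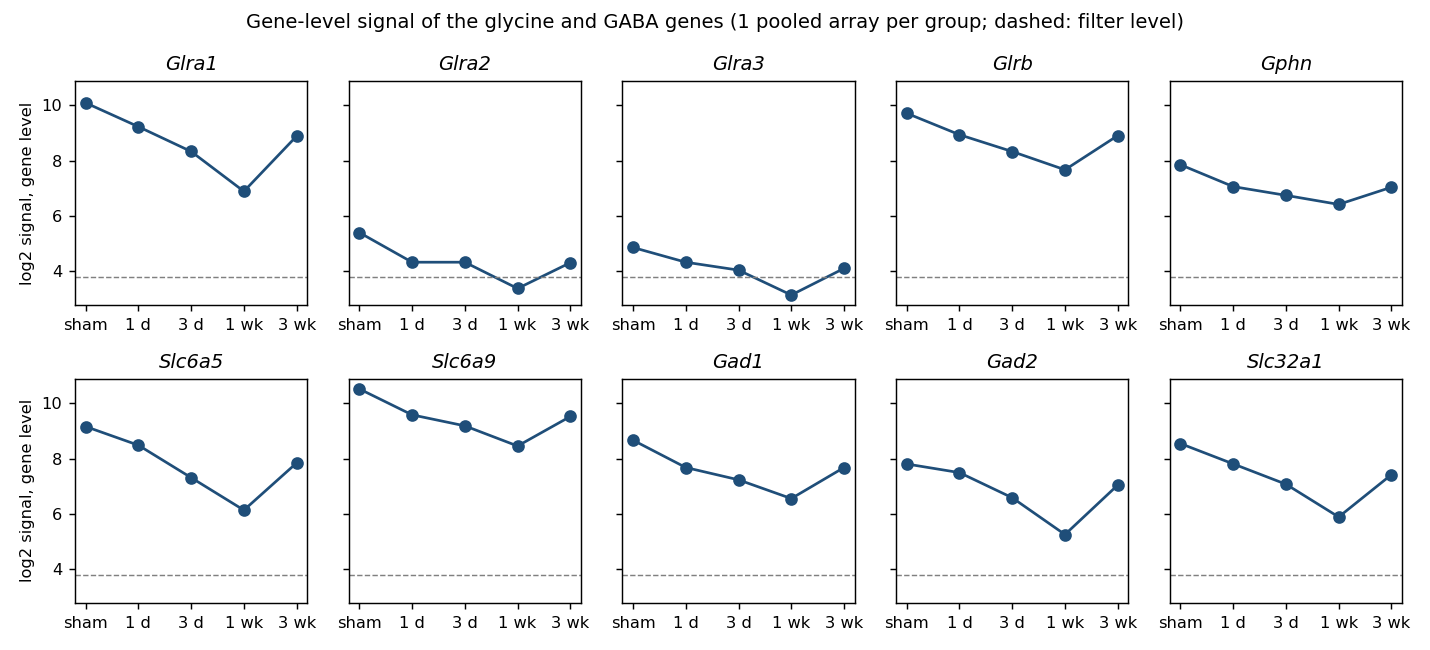
Gene-level log2 signal of each gene in the 5 groups, 1 pooled array per group, with the filter level of 3.79 as a dashed line. Each gene is highest in sham and lowest at 1 week, and Glra2 and Glra3 lie below the filter level at 1 week.

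Glra1 encodes the alpha subunit that predominates in glycine receptors of the adult cord. Its gene-level log2 signal was 10.10 (sham), 9.23 (1 day), 8.34 (3 days), 6.90 (1 week) and 8.89 (3 weeks). The difference from sham at 1 week, -3.20, was the largest fall of the 10 genes, and 0.195% of all genes had a lower difference at that time. All 9 of its exon-level probe sets were lower than sham at every time, with a median ± SD over probe sets of -3.13 ± 0.72 at 1 week. The probe sets share their RNA, so their SD carries no information on how mice vary. From 1 week to 3 weeks the Glra1 signal was 4.00-fold higher, also the largest such step of the 10.

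Glrb encodes the beta subunit, which binds gephyrin and ties the receptor to the synapse. Its signal was 9.72 (sham), 8.94 (1 day), 8.33 (3 days), 7.68 (1 week) and 8.91 (3 weeks). The beta subunit gene lay close to Glra1 at 1 day, at -0.78 against -0.86. At 1 week it was at -2.04, and the Glra1 difference was lower by 1.16 at the gene level (exon level -3.13 against -2.22). How far this gap exceeds the spread between animals cannot be tested with pooled RNA.

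Glra2, the alpha subunit that prevails before birth, had signals of 5.41 (sham), 4.33 (1 day), 4.33 (3 days), 3.38 (1 week) and 4.32 (3 weeks). It was the only 1 of the 10 genes past 2-fold at 1 day, at -1.07 (7 probe sets, -1.55 ± 0.72), and it stood at -0.99 after the arrays were centred on their medians. Its exon-level median at 1 day was short of 2-fold with no filter on probe sets (-0.77), with exon arrays centred (-0.85) and with them quantile normalized (-0.84). Of the 7 Glra2 probe sets, 4370128, 4623140 and 5589522 passed the filter through sham alone. They stood at -2.03, -1.93 and -1.93 at 1 day, so the exon-level call is tied to the filter. Glra3, an alpha subunit of the superficial dorsal horn, had signals of 4.87, 4.33, 4.05, 3.15 and 4.11. Its differences were -0.53, -0.82, -1.72 and -0.76, so it passed 2-fold only at 1 week. Both genes were below the filter level of 3.79 at 1 week, where a signal says little about the true level, and with lower signals raised to that level they stood at -1.61 and -1.07. Of 12 probe sets each, 7 passed the exon-level filter of 4.85, through higher signals in other groups than 1 week. All 7 were at least 2-fold lower at 1 week for each gene. Their 1 week signals were all below that filter, so the size of these falls is uncertain as well.

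Gphn encodes gephyrin, the scaffold below glycine and many GABA receptors, which also makes the molybdenum cofactor. Its signal was 7.86 (sham), 7.07 (1 day), 6.75 (3 days), 6.42 (1 week) and 7.04 (3 weeks). Among the 8 genes above the filter level throughout, Gphn had the smallest fall at 1 week, -1.43, and much of it was there early, with 55.1% of the log2 fall present at 1 day and 77.2% at 3 days. Its 28 probe sets moved together: all 28 were lower than sham at every time, and 27 were at least 2-fold lower at 1 week (-1.42 ± 0.36). At 1 day and at 3 weeks Gphn and Glrb had nearly equal differences from sham, -0.79 and -0.78, then -0.81 for both. At 1 week Glrb was lower by a further 0.61.

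**Figure D2:**
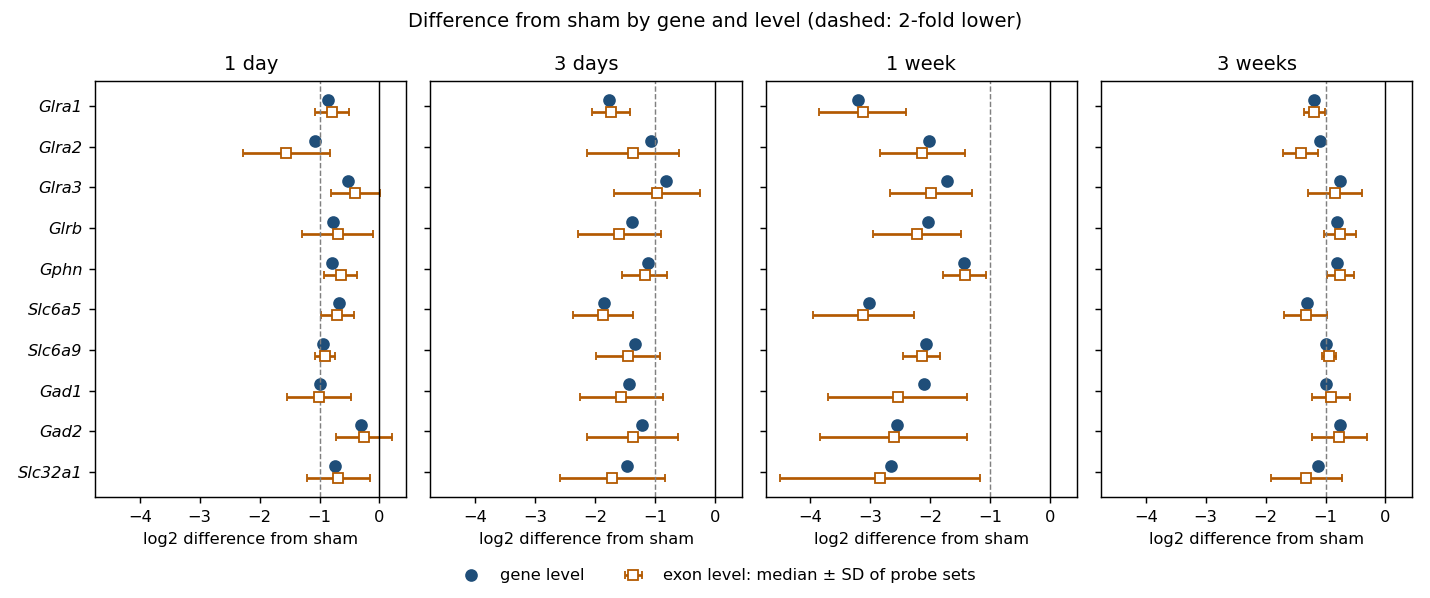
Log2 difference from sham for each gene at the 4 times, at the gene level (filled) and as the median of the exon-level probe sets with the SD between probe sets (open), with the 2-fold line dashed. At 1 week all 10 genes lie left of the 2-fold line at both levels.

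Slc6a5 and Slc6a9 encode the glycine transporters of glycinergic nerve endings and, mainly, of astrocytes. Slc6a5 had a signal of 9.16 (sham), 8.48 (1 day), 7.31 (3 days), 6.13 (1 week) and 7.84 (3 weeks). Slc6a9 had 10.52, 9.58, 9.18, 8.45 and 9.52. The glial transporter gene was the lower of the pair at 1 day, at -0.94 against -0.68 for the neuronal one, and the order turned at 3 days (-1.34 against -1.85). At 1 week Slc6a5 was at -3.02, 8.13-fold lower than sham, and Slc6a9 at -2.06, 4.18-fold lower. The exon level gave the same order at all 4 times, with 1 week medians of -3.12 ± 0.85 over 25 probe sets for Slc6a5 and -2.14 ± 0.31 over 19 for Slc6a9. All 44 of these probe sets were lower than sham at every time. Between 1 day and 3 days Slc6a5 was the only 1 of the 10 genes past 2-fold, at -1.17, where 0.975% of all genes were that much lower. At 3 weeks it was still the lowest of the 10, at -1.32.

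Slc32a1 encodes the vesicular transporter that loads GABA and glycine alike. Its signal was 8.54 (sham), 7.81 (1 day), 7.07 (3 days), 5.89 (1 week) and 7.42 (3 weeks). The fall at 1 week, -2.65, lay between that of Slc6a5 and those of the decarboxylase genes. Its 8 probe sets spread widely at that time, from -4.48 to -0.37 (median -2.84, SD 1.67), and 6 of the 8 were at least 2-fold lower. The probe set at -4.48 read below the exon-level filter of 4.85 at 1 week.

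Gad1 and Gad2 encode the 2 glutamate decarboxylases, the first found throughout the neuron and the second mostly at nerve endings. Gad1 had a signal of 8.66 (sham), 7.67 (1 day), 7.23 (3 days), 6.55 (1 week) and 7.67 (3 weeks), and Gad2 had 7.80, 7.49, 6.58, 5.25 and 7.04. The pair parted at 1 day, when Gad1 was at -0.99 and Gad2 at -0.31. Exon-level medians at 1 day were -1.01 ± 0.53 over 20 probe sets for Gad1 and -0.26 ± 0.47 over 18 for Gad2, with 10 and 0 of them at least 2-fold lower. Among all 161030 probe sets passing the exon-level filter, 12.0% were at least 2-fold lower at 1 day. At 1 day 34.9% of all genes had a lower difference than Gad2, and after centring of the exon-level arrays its difference was 0.02. At 1 week Gad2 was the lower of the pair at the gene level, -2.55 against -2.11, while the exon-level medians were close, -2.61 and -2.55.

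The window from 250 bases before to 50 bases after the annotated transcript start is shown for the decarboxylase genes, which differed at 1 day, and for Slc6a5 and Gphn, which had large and small falls at 1 week. Sequences are from RefSeq on GRCm38.p6, written 5′ to 3′ on the gene's strand, and 9 of the 10 genes matched, with 12 starts. For Slc6a5 the first of its 2 listed starts is given. Capitals mark matches, on either strand, to the TATA box (letters TATAAA), the GC box (letters GGGCGG), the CCAAT box, the cyclic AMP response element (letters TGACGTCA) and the core of RE1, the element bound by the repressor REST. The RE1 core was searched as AGCACC and GGACAG with any 2 bases between them. No matches overlapped.
Gad1, chr2:70561879-70562178, plus strand: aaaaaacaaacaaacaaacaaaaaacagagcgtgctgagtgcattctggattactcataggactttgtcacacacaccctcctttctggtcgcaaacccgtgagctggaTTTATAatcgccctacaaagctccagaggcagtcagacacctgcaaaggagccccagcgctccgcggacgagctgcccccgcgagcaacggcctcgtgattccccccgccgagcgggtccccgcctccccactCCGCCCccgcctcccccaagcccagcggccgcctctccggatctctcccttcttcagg
Gad2, chr2:22622077-22622376, plus strand: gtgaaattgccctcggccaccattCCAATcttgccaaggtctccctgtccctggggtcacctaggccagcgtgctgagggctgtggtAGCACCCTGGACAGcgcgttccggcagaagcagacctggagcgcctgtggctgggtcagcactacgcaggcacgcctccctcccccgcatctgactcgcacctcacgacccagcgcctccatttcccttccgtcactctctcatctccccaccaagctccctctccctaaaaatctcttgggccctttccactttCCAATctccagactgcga
Slc6a5, chr7:49910049-49910348, plus strand: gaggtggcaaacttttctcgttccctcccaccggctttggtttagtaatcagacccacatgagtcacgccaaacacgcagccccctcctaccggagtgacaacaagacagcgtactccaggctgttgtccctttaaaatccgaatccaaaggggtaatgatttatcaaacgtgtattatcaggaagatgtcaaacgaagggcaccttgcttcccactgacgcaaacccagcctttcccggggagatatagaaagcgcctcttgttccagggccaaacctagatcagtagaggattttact
Gphn, chr12:78226405-78226704, plus strand: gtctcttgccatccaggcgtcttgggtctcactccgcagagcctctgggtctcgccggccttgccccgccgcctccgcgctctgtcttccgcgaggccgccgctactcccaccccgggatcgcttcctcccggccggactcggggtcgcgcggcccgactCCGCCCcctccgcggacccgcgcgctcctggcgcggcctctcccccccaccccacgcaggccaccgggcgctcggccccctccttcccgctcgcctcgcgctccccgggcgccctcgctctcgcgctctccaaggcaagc

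The Gad2 window holds the RE1 core as AGCACCCTGGACAG, its first base 163 bases before the start, and CCAAT at 2 places. The RE1 core occurs in 17 of the 32851 windows of this length in the table (0.0517%) and in 1 of the 12 windows of these genes. The Gad1 window holds a TATA box 141 bases and a GC box 8 bases before the start, as read to the first base of each match. A GC box is present in 35.7% of all windows and a TATA box in 13.6%. The Gphn window holds a GC box 90 bases before the start and is 77.0% G and C, against 49.7% for Slc6a5 and a median of 52.7% over all windows. None of the 5 motifs is in the Slc6a5 window. CCAAT is in 37.4% of all windows and the cyclic AMP response element in 1.79%. Such matches describe letters only, and no binding was measured here.

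Probe sets were then compared within genes. Of the 167 probe sets, 154 passed the exon-level filter of 4.85, and 152 of these were lower than sham at 1 week, 145 by at least 2-fold. Among all 161030 probe sets passing the filter, 56.8% were lower at 1 week and 19.7% at least 2-fold lower. The 2 probe sets above sham at 1 week belong to Gad1 and Gad2, and each is the probe set farthest from its gene's median. Probe set 5351365 of Gad1 read 8.89 (sham), 8.89 (1 day), 8.67 (3 days), 9.40 (1 week) and 8.84 (3 weeks). Probe set 5201797 of Gad2 read 8.73, 10.09, 10.13, 10.09 and 9.62 and was thus above sham at all 4 times. Without it the other 17 probe sets of Gad2 had a median of -2.65 ± 0.84 at 1 week, and without its own exception Gad1 had -2.66 ± 0.92 over 19. The annotation used here does not place these probe sets within their genes, and their sequences were not used here.

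**Figure D3:**
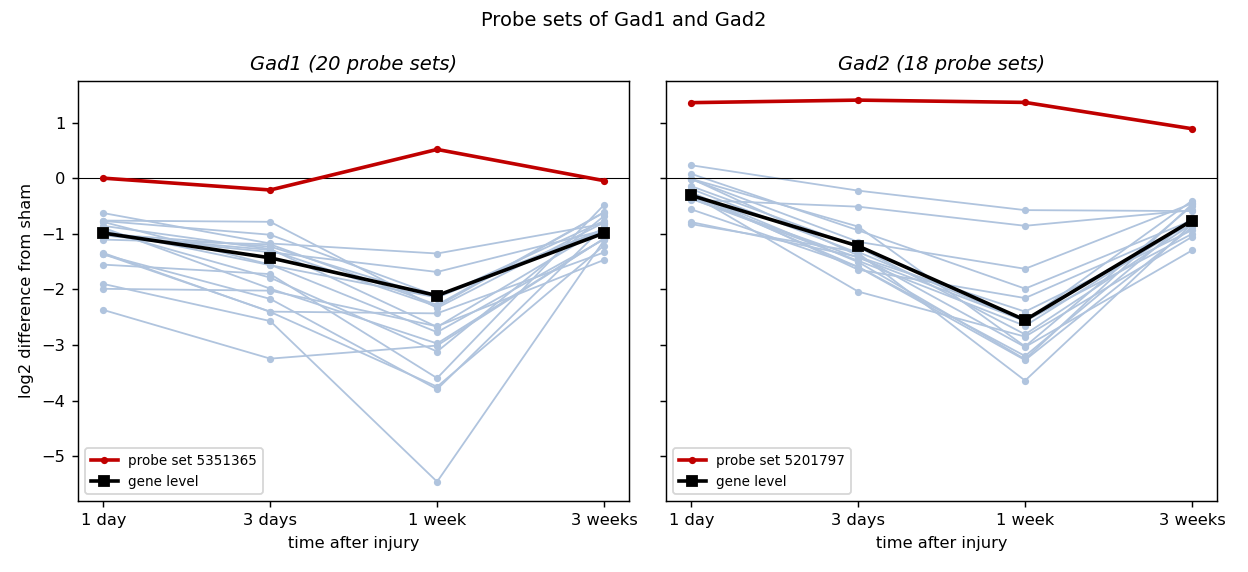
Log2 difference from sham of each Gad1 and Gad2 probe set that passed the filter (thin lines), of the probe set farthest from the gene median at 1 week (red), and of the gene-level cluster (black squares). At 1 week the red lines stand at 0.52 and 1.36 while all other lines are below 0.

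The largest departures of the other genes were in size, not in direction. Probe set 5240129 of Slc6a5, at 4.91 in sham, was at -0.69 at 1 week, while the other 24 ran from -5.46 to -1.84. Probe set 4386703 of Slc32a1 went from 6.61 to 6.24, a difference of -0.37. For Glra1, Glra2, Glra3, Glrb, Gphn and Slc6a9 the farthest probe set was lower than the gene median, by 0.97 to 1.81. Those of Glra1, Glra2, Glra3 and Glrb read below the exon-level filter of 4.85 at 1 week, where a signal says little about the true level. So did the Slc6a5 probe sets at -5.46 and -0.69. Slc6a9 had the smallest SD between probe sets at 1 week, 0.31.

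The course over time differed in shape among the 10 genes. Of the 10, 9 were lower at each step from sham to 1 week and then higher at 3 weeks without reaching sham, a course that 18.0% of all genes had. The exception, Glra2, had the identical deposited value of 4.33 at 1 day and 3 days. The share of the 1 week fall already present at 1 day ran from 12.2% (Gad2) and 22.3% (Slc6a5) to 55.1% (Gphn) among the 8 genes above the filter level throughout. For Glra2 and Glra3 it was 53.0% and 31.0%, or 66.4% and 49.6% with signals raised to the filter level. Between 3 days and 1 week 4 genes were lower by at least 2-fold (Glra1, Gad2, Slc32a1 and Slc6a5, from -1.44 to -1.18), where 3.2% of all genes were. From 1 week to 3 weeks 7 of the 10 were at least 2-fold higher, where 7.06% of all genes were. Gphn, at 0.62, was one of the remaining 3. The others, Glra2 and Glra3, were below the filter level at 1 week, and from that level their steps were 0.52 and 0.32.

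At 3 weeks the 8 genes above the filter level throughout had regained between 43.3% (Gphn) and 70.1% (Gad2) of their log2 fall at 1 week. Glra2 and Glra3 had regained 46.2% and 56.0% as deposited, and 32.5% and 29.6% with signals raised to the filter level. The median of all 10 was 56.2% as deposited. The median for all 1572 genes at least 2-fold lower at 1 week was 54.0% (quartiles 44.4% and 62.6%). Gphn lay below the lower quartile and Gad2 above the upper. The differences left at 3 weeks spanned a narrower range, -1.32 to -0.76, than the falls at 1 week.

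**Figure D4:**
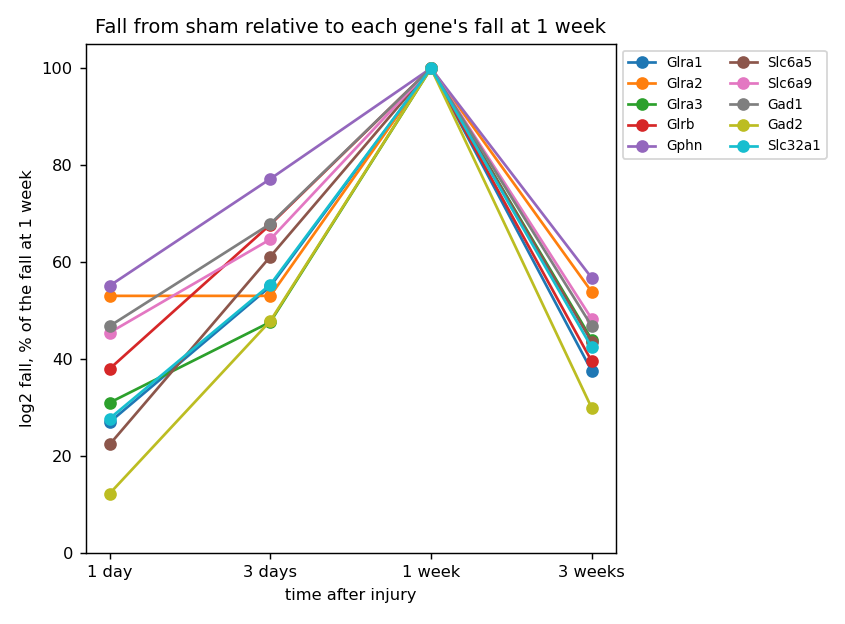
The log2 fall of each gene from sham at each time, as a percentage of its own fall at 1 week, where all lines meet by construction. At 1 day the 8 genes above the filter level throughout run from 12.2% (Gad2) to 55.1% (Gphn), and at 3 weeks from 29.9% to 56.7% (the same genes); the lines of Glra2 and Glra3 rest on 1 week signals below that level.

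Some deposited gene-level values are identical on different arrays to every decimal given. Depending on the pair of arrays, 6.84% to 13.3% of the genes passing the filter had the same value on both, and 34.4% had the same value on at least 2 of the 5. At the exon level the same held for 0.152% to 0.277% of probe sets. Of the 10 genes, 2 are concerned, Glra2 at 1 day and 3 days and Gad1 at 1 day and 3 weeks. The probe sets of Gad1 had medians of -1.01 at 1 day and -0.90 at 3 weeks, and those of Glra2 -1.55 at 1 day and -1.37 at 3 days. Across genes with identical values, the exon-level medians of the 2 arrays differed by a median of 0.09 to 0.14, depending on the pair, against 0.28 to 0.63 for the other genes. A gene-level step of exactly 0 thus stands for a small difference in most such genes.

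Genes that handle the same transmitters were counted by lists chosen with earlier results of these data known. At the gene level a gene counts as measured if a cluster annotated to it alone passed the filter, which a high signal in any 1 group allows. A gene that was not measured thus need not have a low signal. Among genes of GABA uptake and breakdown, 5 of 6 listed were measured. Of these, 3 of 5 were at least 2-fold lower at 1 week, as were 13.9% of all genes, and 0 were higher. At the exon level 1 of 5 was higher, Slc6a13 at 1.24. Slc6a11, an astrocytic GABA transporter, had a log2 signal of 10.26 (sham), 9.39 (1 day), 8.00 (3 days), 7.66 (1 week) and 9.17 (3 weeks). Its difference of -2.26 at 3 days was lower than that of any of the 10 genes at that time, as given above. Abat, the GABA transaminase that degrades GABA, was at -1.72 at 1 week and -0.45 at 3 weeks. Slc6a13, a GABA and taurine transporter of the meninges, was high late, at -0.85 at 1 day, 0.82 at 1 week and 2.89 at 3 weeks. At 3 weeks 2 of 5 genes of this list were at least 2-fold higher, as were 8.5% of all genes. The one other than Slc6a13 passed the filter through its 3 weeks signal alone, so its call there is tied to the filter. The fibroblast and meningeal markers, a list that itself holds Slc6a13, had 12 of 12 higher at 3 weeks (median 3.70). Of these, Slc22a6 likewise passed the filter at 3 weeks alone. The part of these markers in the Slc6a13 signal was not tested.

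Of the enzymes that make or cleave glycine, 0 of 4 measured (of 6 listed) were past 2-fold in either direction at any time. The 1 week median was -0.01. Shmt1 and Gldc, at 3.88 and 3.94 in sham, lay near the filter level of 3.79, where a 2-fold fall could not be read. Shmt1 and Shmt2 also had identical values on several arrays, so the median says little about the list. Gldc, a subunit of the glycine cleavage system, was listed at 1 value, 3.94, on all 5 arrays. Its exon-level medians ran from -0.05 to 0.07. Shmt2, a mitochondrial enzyme that makes glycine from serine, was at 0.11 at 1 week (exon level 0.54).

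The chloride transporters that set the direction of glycine and GABA currents differed among themselves. Slc12a5, the potassium-chloride exporter of mature neurons, had a signal of 9.25 (sham), 8.38 (1 day), 7.47 (3 days), 6.17 (1 week) and 7.96 (3 weeks). It was at -3.08 at 1 week, where Glra1 was at -3.20 and Slc6a5 at -3.02. Slc12a2, the sodium-potassium-chloride importer present in many cell types, was at -0.56 at 1 week and did not pass 2-fold at any time. The chloride channel gene Clcn2 was at -1.24 at 1 week and -0.10 at 3 weeks.

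Of 17 listed GABA-A receptor subunits 8 were measured, and 6 of these were at least 2-fold lower at 1 week (median -1.62), against 13.9% of all genes. Of the 6, 1 passed the filter through sham alone. At the exon level 9 of 14 were lower (median -1.30), against 15.6% of all genes at that level. Gabra5, an alpha subunit of mostly extrasynaptic receptors, had signals of 8.82 (sham), 7.66 (1 day), 6.57 (3 days), 4.98 (1 week) and 7.46 (3 weeks). Gabrb2, a beta subunit, had 7.55, 5.42, 5.43, 3.26 and 6.27, the 1 week signal being below the filter level. The exon-level medians at 1 week were -3.89 for Gabra5 and -2.88 for Gabrb2. Gabbr1, a subunit of the metabotropic GABA receptor, was at -2.15 at 1 week. All 5 measured of 8 listed organisers of the inhibitory postsynapse were at least 2-fold lower at 1 week, against 13.9% of all genes. Their median was -1.47, with Slitrk3 at -2.78 and Inpp5j at -2.09. Slitrk3, an adhesion protein of inhibitory synapses, was also past 2-fold at 1 day, at -1.60. Among 12 measured of 14 listed genes of inhibitory interneuron identity 6 were at least 2-fold lower at 1 week, against 13.9% of all genes, and 1 was higher. Of the 6, 1 passed the filter through sham alone. The calcium-binding proteins Pvalb and Calb1 were at -2.67 and -2.31, and Pvalb is also a muscle marker. The neuropeptide gene Npy was the 1 higher gene, with signals of 6.71 (sham), 7.28 (1 day), 7.28 (3 days), 8.05 (1 week) and 7.21 (3 weeks), where 11.3% of all genes were higher at 1 week.

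The 10 genes were set beside neuronal and other cell type markers, which moved over the same arrays. Of the listed markers of the cord's own cells, 15 of 16 pan-neuronal, 11 of 12 astrocyte and 9 of 10 oligodendrocyte genes were measured. All 15 measured pan-neuronal markers were at least 2-fold lower at 1 week, where 13.9% of all genes were. Their median was -2.32 against -2.09 for the 10 genes. At the exon level the order turned, at -2.07 against -2.38. Their gene-level medians at 1 day, 3 days and 3 weeks were -0.51, -0.98 and -0.97. Genes of excitatory transmission had 8 of 13 lower at 1 week (median -1.82), against 13.9% of all genes. Among the 8 was Slc17a6, which loads glutamate into vesicles, at -3.00. At the exon level 11 of 15 excitatory genes were lower, against 15.6% of all genes. No test of a difference between these lists can be made with 1 array per group, and no difference is called particular to the inhibitory genes. Oligodendrocyte markers had 7 of 9 lower at 1 week (median -1.36), against 13.9% of all genes. Astrocyte markers had 2 of 11 lower (median -0.70), or 4 of 12 at the exon level, where 15.6% of all genes were.

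**Figure D5:**
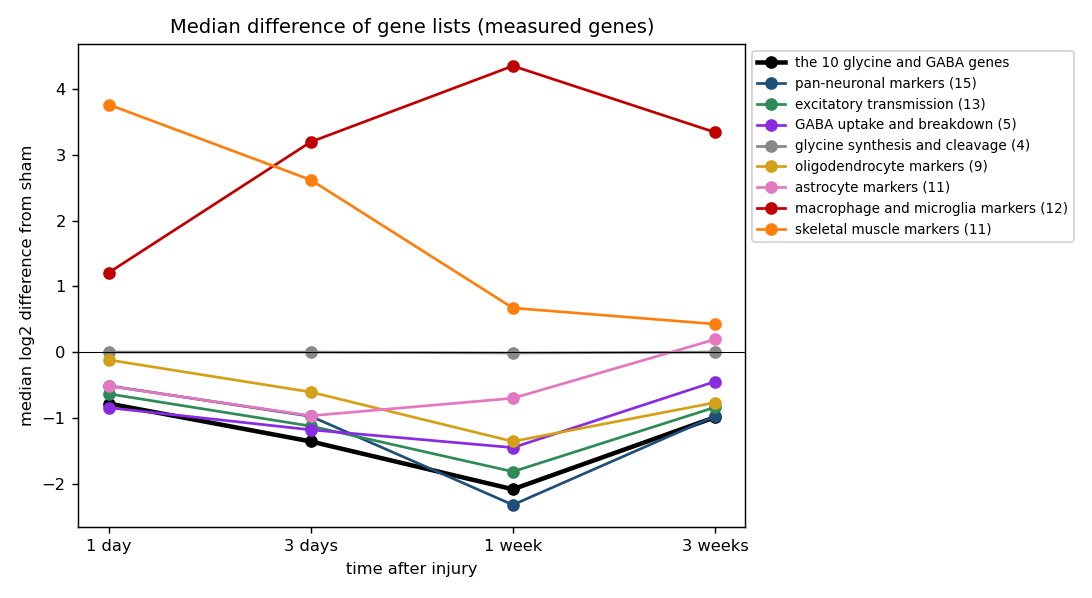
Median log2 difference from sham of the 10 glycine and GABA genes and of 8 comparison lists at the 4 times, with the number of measured genes in brackets. The 10 genes stand at -0.78 (1 day), -1.36 (3 days), -2.09 (1 week) and -0.99 (3 weeks). The pan-neuronal markers stand at -0.51, -0.98, -2.32 and -0.97, nearest to the 10 genes at 3 weeks. Macrophage markers peak at 4.35 at 1 week.

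Many markers of other cells rose on the same arrays. Macrophage and microglia markers had 6 of 12 at least 2-fold higher at 1 day, 11 at 3 days, and 12 at both 1 week and 3 weeks, against 3.79%, 5.93%, 11.3% and 8.5% of all genes. At 1 day 1 of the 12 was at least 2-fold lower, as were 4.09% of all genes. The log2 of the summed signal of the macrophage and microglia markers was 9.50 in sham and 13.98 at 1 week, and that of the pan-neuronal markers 14.36 and 12.48. Skeletal muscle markers had 10 of 11 higher at 1 day (log2 of the summed signal 8.52 in sham and 11.86 at 1 day) and 4 of 11 at 1 week. At 1 week 1 of the 11, Pvalb, was at least 2-fold lower, at -2.67, as were 13.9% of all genes. Fibroblast and meningeal markers had 9 of 12 higher at 1 week (median 3.68), and the log2 of their summed signal was 10.82 in sham and 13.51 at 1 week. The part of these added transcripts in the lower signals of the 10 genes was not tested.

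By the root mean square difference of the 4 log2 differences from sham, the gene most like Glra1 was Ina, a neuronal intermediate filament gene (0.020). Auh was nearest to Gphn (0.019), Actl6b to Gad1 (0.028), Ank1 to Slc32a1 (0.032) and Faim2 to Slc6a5 (0.070). The 3 nearest genes of each of the 10 made 30 distinct genes, and none was another of the 10. Gad2 had the least close neighbours, with Stmn3 at 0.077 first.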

How the data were processed

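The deposited tables hold log2 signals per transcript cluster (23332) and per probe set (229581). Per the submitters' processing notes, GCOS and the mm8 build were used. How background was corrected, arrays normalized and probes summarised was not given in the sources used here. No header states the logarithm's base. Base 2 was taken because the highest value would be 9097 with it and, with the natural logarithm, 514577, above the 65535 of a 16-bit scanner. Symbols came from the platform annotation, updated through RefSeq gene identifiers for 14941 of 14996 single-gene clusters, and 209279 probe sets had 1 symbol. Clusters whose highest value reached the 40th percentile of all values (3.79) were kept, and likewise probe sets (4.85), which left 11280 genes and 14378 at the exon level. The brightest cluster stood for a gene. Differences are values as deposited minus sham, and exon-level values are medians over a gene's probe sets. No p-value was computed, and the number of arrays limits the precision. Both levels were taken as the same pools and never averaged. The members and lists were chosen with earlier results of these data known. Named genes were all 10 members, up to 2 risers and 2 fallers per list at 1 week, lists of 3 or fewer genes in full, and the 3 nearest genes per member. Gldc was named after its values were seen. Scaling, filter, cluster choice, level and a floor were varied. The calling code was run on simulated arrays with shifts planted well past the 2-fold line in bright genes. That run checks the code only, not calls near the line or near the filter level, nor the spread between animals. Python 3.11.15, pandas 2.3.3, numpy 2.4.6 and matplotlib 3.10.9 were used.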

Additional observations from a re-analysis of the deposited data

Results flagged for a closer look

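Ptgds, a prostaglandin synthase gene of the meningeal marker list, was at least 2-fold lower than sham at 3 days (-1.25) and at least 2-fold higher at 3 weeks (1.32). It drew attention because its single arrays moved in opposite directions at these times, and the difference between them was not tested. None of the 10 glycine and GABA genes did so.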

How the results depend on the processing

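All 10 genes stayed at least 2-fold lower at 1 week under each of the 8 alternatives that measured them, except that a filter at the 60th percentile dropped Glra3 and left 9 of 9. The count at 1 day was 0 after centring on array medians, after quantile normalization and at the centred exon level, and 2 at the exon level. The median at 3 weeks passed 2-fold after centring (-1.15), quantile normalization (-1.02) and at the centred exon level (-1.08, also for the exon-level medians). The count at 3 days ranged from 7 to 9 and that at 3 weeks from 4 to 6. The share regained at 3 weeks ranged from 48.6% to 57.3%. Of the values of single genes, 304 kept their side of the 2-fold line, 6 passed it and 6 dropped below it, and none past 2-fold changed sign. Of the 304, 40 came from using no filter, 40 from averaging a gene's clusters and 36 from the 60th percentile filter. Each of the 10 genes has 1 cluster, so these settings could drop a gene but not change its values. Glra3 at 1 week ran from -1.98 to -1.07 and Gad1 from -2.55 to -2.02. At the exon level, 111 values kept their side, 2 passed it and 7 dropped below. Higher genes made up 48.1% of all calls at 1 day as deposited, 67.9% after quantile normalization and 78.2% at the centred exon level, and 38.3%, 50.6% and 59.9% at 3 days. At 3 weeks they made up 71.5%, and 54.4% after centring. Quantile normalization moved the median of all genes by 0.14 at 1 day, 0.10 at 3 days and -0.11 at 3 weeks, and centring by -0.16 at 3 weeks. No paired analysis was possible because each group has 1 array. Leaving out an array was not possible for the same reason. Signals of Glra2 and Glra3 near the filter level limit the size of their falls, and the tables carry no detection call.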
